A study of Homo sapiens with 9 samples.

Results

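MALAT1 and NEAT1 are long noncoding RNAs (lncRNAs) of nuclear bodies, encoded side by side on human chromosome 11. They are 2 of the 27800 gene symbols listed for Huh7, a human cell line established from a hepatocellular carcinoma. They were chosen by name with their TPM in the JQ1, FIDAS-5 and vehicle libraries already known, so their differences are described here without a test. RNA was sequenced from 9 libraries: 3 of cells given 0.5 uM JQ1 for 48 h, 3 of cells given 5 uM FIDAS-5 for 48 h and 3 of vehicle-treated cells, all grown in DMEM with 10% FBS. JQ1 is an inhibitor of BET bromodomain proteins, which bind acetylated histones, and FIDAS-5 inhibits MAT2A, the enzyme that makes the methyl donor S-adenosylmethionine. The values are TPM (transcripts per 1000000), which are scaled for transcript length and sum to the same total in each library. A higher TPM can therefore come from more of an RNA or from less of the others, which cannot be told apart.

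MALAT1 is among the most abundant nuclear RNAs of many human cells and collects in nuclear speckles, where splicing factors are stored. NEAT1 is the scaffold of paraspeckles, bodies that form beside speckles where NEAT1 is transcribed and that hold RNA-binding proteins such as SFPQ and NONO. NEAT1 is made as a short polyadenylated RNA and a long RNA that starts at the same site, and the long RNA is the one paraspeckles need. The long NEAT1 RNA and MALAT1 do not end in a usual poly(A) tail: RNase P, the tRNA-processing enzyme, cuts a tRNA-like element off, and the new end is closed by a triple helix of U-rich and A-rich tracts.

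The 3′ ends are shown because they are the feature these RNAs have in common and because their processing factors are described further on. Both lie on the plus strand of GRCh38 and come from GENCODE 29 transcripts, at chr11:65506019-65506116 for MALAT1 and chr11:65445441-65445540 for NEAT1. Capitals mark the first U-rich tract, the second U-rich tract and the A-rich tract, in that order, 5′ to 3′.
MALAT1 3′ end: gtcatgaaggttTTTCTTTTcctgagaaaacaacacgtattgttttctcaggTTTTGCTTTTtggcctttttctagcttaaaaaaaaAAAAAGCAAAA
NEAT1 3′ end: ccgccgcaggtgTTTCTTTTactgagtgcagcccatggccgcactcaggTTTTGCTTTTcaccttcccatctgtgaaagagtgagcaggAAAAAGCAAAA
The 3 marked tracts were taken from stretches that the ends share exactly, so they have the same letters in both RNAs by choice. In MALAT1 the T run of the first tract and the A run go on before the capitals. The second U-rich tract (TTTTGCTTTT) followed within 60 nt by the A-rich tract (AAAAAGCAAAA) was found in 9 of 206694 GENCODE 29 transcripts, which belong to 3 genes: MALAT1, NEAT1 and RETREG3. MALAT1 and NEAT1 were bound to be among them, because the tracts come from their ends. The A-rich tract is the annotated end of the 22743 nt NEAT1 transcript, while the 8708 nt MALAT1 transcript is annotated 353 nt further. The tRNA-like small RNA cut from MALAT1, mascRNA, starts at the base after the A-rich tract, at chr11:65506117-65506174 on the plus strand.
mascRNA: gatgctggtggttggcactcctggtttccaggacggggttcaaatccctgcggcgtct
The table lists mascRNA and MIR612, a microRNA inside NEAT1, at 0 in all 9 libraries, so the cut itself was not followed here.

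RefSeq lists 2 start sites of MALAT1 on GRCh38.p14, and windows of 300 bases around them are shown because JQ1 acts on proteins that bind chromatin. The promoter windows used here include none for NEAT1, so its promoter was not examined. The upstream window is chr11:65497488-65497787 and the downstream one chr11:65498795-65499094, both on the plus strand. Capitals mark GGGCGG, the GC box, or its reverse complement in the upstream window and TATAAA in the downstream one.
MALAT1 upstream start: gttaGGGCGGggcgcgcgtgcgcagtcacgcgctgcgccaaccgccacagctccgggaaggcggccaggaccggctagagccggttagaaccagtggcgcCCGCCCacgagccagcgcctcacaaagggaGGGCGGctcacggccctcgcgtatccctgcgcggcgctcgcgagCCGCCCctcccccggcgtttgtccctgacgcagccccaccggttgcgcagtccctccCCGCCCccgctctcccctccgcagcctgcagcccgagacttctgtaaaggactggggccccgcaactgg
MALAT1 downstream start: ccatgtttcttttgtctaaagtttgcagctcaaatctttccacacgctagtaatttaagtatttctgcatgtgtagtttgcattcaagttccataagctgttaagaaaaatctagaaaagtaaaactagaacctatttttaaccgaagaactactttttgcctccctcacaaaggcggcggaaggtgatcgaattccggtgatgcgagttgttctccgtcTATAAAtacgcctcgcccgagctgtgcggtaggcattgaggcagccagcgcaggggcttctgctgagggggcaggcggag
The upstream window held GGGCGG 5 times, counted on both strands, and the downstream window held none. TATAAA was found once in the downstream window and not in the upstream one. Of 35116 RefSeq promoter windows, 45% held GGGCGG and 11.5% held TATAAA on either strand. The CCAAT box was in neither window on either strand, against 34.6% of all windows, and neither was the E-box CACGTG, against 7.26%. The cAMP response element TGACGTCA was in neither of them and in 1.85% of all windows. No marked motif overlapped another. The TPM are per gene, so RNA from the separate starts was not resolved.

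Hepatocyte genes such as albumin were listed at 1 TPM or more in all libraries for 10 of 10 markers, and their summed level was 11170 to 16190 TPM with JQ1, 4248 to 6353 TPM with FIDAS-5 and 5250 to 6175 TPM with vehicle. Summed levels of markers of other cell types also had ranges that did not overlap between some groups. Of 4 leukocyte markers 2 were at 1 TPM or more in all libraries, LYZ at 9.89 to 282.6 TPM and CD14, and the sum was 12.3 to 17.6 TPM with JQ1, 229.8 to 285.5 TPM with FIDAS-5 and 105.9 to 127.9 TPM with vehicle. Among 3 endothelial markers PECAM1 was at 1.28 to 16.5 TPM while VWF and CDH5 were below 0.1 TPM throughout, and the sum was 1.28 to 1.61 TPM with JQ1, 15.3 to 16.5 TPM with FIDAS-5 and 6.52 to 9.83 TPM with vehicle. For 3 cholangiocyte markers, with KRT7 at 0, the sum was 28.97 to 43.08 TPM with JQ1, 14.7 to 26.5 TPM with FIDAS-5 and 19.8 to 26.3 TPM with vehicle, and none of 4 fibroblast markers reached 1 TPM in any library. The part of these markers in the differences of MALAT1 and NEAT1 was not tested. HEXIM1, a gene known to rise with BET inhibitors, averaged 23.3 ± 4.40 TPM with JQ1, 6.69 ± 1.33 TPM with FIDAS-5 and 6.16 ± 0.153 TPM with vehicle (SD, n = 3 each). MAT2A, the FIDAS-5 target, averaged 78.7 ± 9.66 TPM with FIDAS-5 and 95.5 ± 15.4 TPM with vehicle and was not called. FIDAS-5 acts on the MAT2A enzyme, so the level of the transcript does not show whether the enzyme was inhibited. TPM keep no read counts, so the depth of the libraries and the counting error are unknown. Labels do not say that the libraries of a group were separate cultures, so p-values cover only the spread between libraries, which may be technical. Within each group the libraries departed from their mean along transcript GC content: the Spearman correlation of departure with GC was −0.65, −0.34 and 0.64 for JQ1 replicates 1 to 3, −0.51, −0.21 and 0.56 for FIDAS-5, and 0.38, −0.27 and −0.14 for vehicle.

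MALAT1 was several times higher in JQ1 libraries. Its level was 272.8, 197.1 and 188.3 TPM with JQ1, 94.3, 48.8 and 66.9 TPM with FIDAS-5, and 47.7, 43.7 and 50.5 TPM with vehicle. The lowest JQ1 library was above the highest library of both other groups. The FIDAS-5 libraries were more scattered: replicates 1 and 3 were above all vehicle libraries, and replicate 2 was inside the vehicle range. The means were 219.4 ± 46.4 TPM with JQ1, 70.0 ± 22.9 TPM with FIDAS-5 and 47.3 ± 3.45 TPM with vehicle (SD, n = 3 each). The JQ1 mean was thus 4.64 times the vehicle mean and 3.14 times the FIDAS-5 mean, and the FIDAS-5 mean was 1.48 times the vehicle mean. On the log2(TPM + 1) scale, on which all differences are given from here on, the MALAT1 difference was 2.17 for JQ1 against vehicle, 0.51 for FIDAS-5 against vehicle and 1.67 for JQ1 against FIDAS-5, with a standard error of 0.24 for each. The size of the FIDAS-5 difference rested in part on replicate 1: it was 0.27 without that library and 0.74 without replicate 2.

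NEAT1 was much less abundant and had the same order of groups. It had 15.7, 15.2 and 6.62 TPM with JQ1, 4.14, 3.01 and 2.51 TPM with FIDAS-5, and 2.01, 2.25 and 2.40 TPM with vehicle. All 3 JQ1 libraries were above all others, although replicate 3 was well below replicates 1 and 2. Unlike MALAT1, NEAT1 had no overlap between FIDAS-5 and vehicle, but the lowest FIDAS-5 library was only slightly above the highest vehicle library. The means were 12.5 ± 5.10 TPM with JQ1, 3.22 ± 0.834 TPM with FIDAS-5 and 2.22 ± 0.199 TPM with vehicle (SD, n = 3 each). The JQ1 mean was 5.63 times the vehicle mean and 3.88 times the FIDAS-5 mean, and the FIDAS-5 mean was 1.45 times the vehicle mean. Differences were 1.98 for JQ1 against vehicle, 0.37 for FIDAS-5 against vehicle and 1.61 for JQ1 against FIDAS-5, each with a standard error of 0.29. At 2 TPM the pseudocount shrinks such differences, so for NEAT1 they understate the ratio of means. Leaving out JQ1 replicate 3 brought the NEAT1 difference between JQ1 and vehicle to 2.35. Short and long NEAT1 RNAs share their 5′ part, and the gene value does not separate them.

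**Figure D1:**
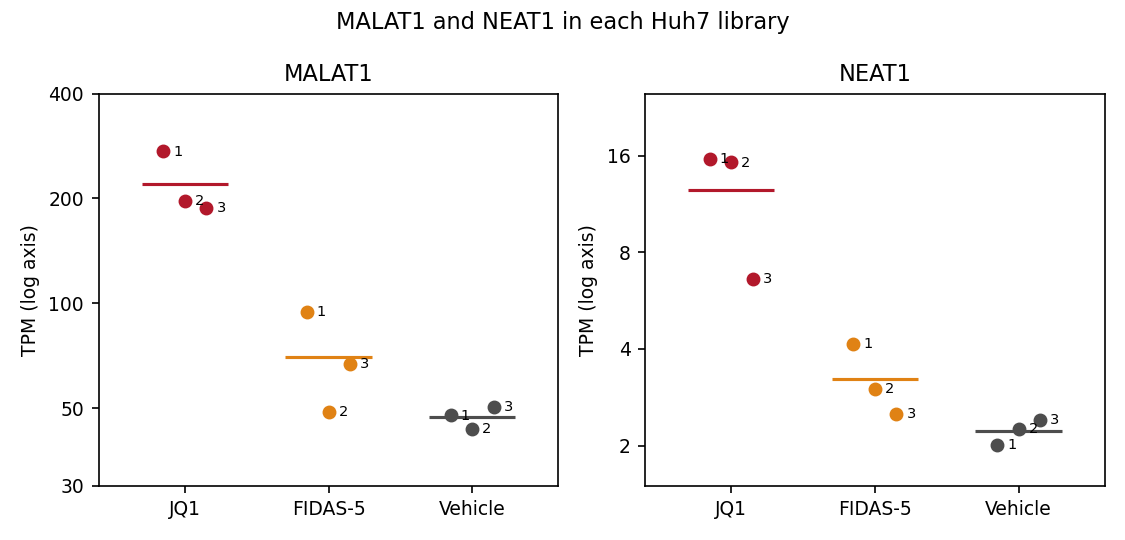
TPM of MALAT1 (left) and NEAT1 (right) on log axes in each library, numbered by replicate, with a bar at the group mean (n = 3 each). MALAT1 is at 188.3 to 272.8 TPM with JQ1, 48.8 to 94.3 TPM with FIDAS-5 and 43.7 to 50.5 TPM with vehicle; NEAT1 is at 6.62 to 15.7, 2.51 to 4.14 and 2.01 to 2.40 TPM.

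Groups that do not overlap were common in these data. Of 13573 tested genes, 24.5% had all 3 JQ1 libraries above all vehicle libraries, as MALAT1 and NEAT1 did. All 3 FIDAS-5 libraries were above all vehicle libraries for 20.9% of genes, NEAT1 among them and MALAT1 not. All 3 JQ1 libraries were above all FIDAS-5 libraries for 22.7% of genes, both RNAs included, and limma called 34.8% of genes in either direction in that comparison. The vehicle libraries serve in 2 of these comparisons and the JQ1 and FIDAS-5 libraries in 2 each, so the 3 are not independent. Ordered from the highest JQ1 difference down, MALAT1 was number 75 and NEAT1 number 109 of the 13573 genes. Ordered by the FIDAS-5 difference they were numbers 2156 and 2949 of the same genes, in the upper part but far from the top.

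MALAT1 was far above NEAT1 in every library. The ratio of their TPM was 17.4, 12.9 and 28.4 in JQ1 libraries, 22.8, 16.2 and 26.6 in FIDAS-5 libraries, and 23.8, 19.4 and 21.0 in vehicle libraries. The ranges of the 3 groups overlapped. Mean ratios were 19.6 ± 7.97 with JQ1, 21.9 ± 5.25 with FIDAS-5 and 21.4 ± 2.22 with vehicle (SD, n = 3 each). JQ1 replicate 3, with the lowest NEAT1 of its group, had the highest ratio.

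Scaling to the TPM of protein-coding genes alone left the order of the groups in place. Symbols matched as protein-coding held only 27.6% (JQ1 replicate 3) to 34.0% (JQ1 replicate 1) of the TPM of a library. Most of each total was thus in other symbols, and the share varied within a group. Per 1000000 protein-coding TPM, MALAT1 was at 802.2, 589.3 and 681.4 with JQ1, 284.8, 170.8 and 236.6 with FIDAS-5, and 157.6, 136.0 and 164.0 with vehicle. On this scale all 3 FIDAS-5 libraries were above the vehicle libraries for MALAT1 too. NEAT1 was at 46.1, 45.6 and 24.0 with JQ1, 12.5, 10.5 and 8.90 with FIDAS-5, and 6.63, 7.02 and 7.80 with vehicle. JQ1 replicate 3 remained the lowest NEAT1 value of its group on this scale.

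The departures along GC content moved with part of the spread within groups. The median GC content of the annotated transcripts was 39.3% for MALAT1 and 47.1% for NEAT1. After a trend on GC was removed from each library, NEAT1 was at 3.87, 3.94 and 3.27 log2 units with JQ1, against 4.06, 4.02 and 2.93 before. The SD of NEAT1 within JQ1 fell to 0.37 after removal, against 0.64 before, and that within FIDAS-5 to 0.12, against 0.28. For MALAT1 the SD within JQ1 was 0.28 after and 0.29 before. The differences from vehicle were no smaller after removal. For JQ1 against vehicle they were 2.33 for MALAT1 and 2.07 for NEAT1, and for FIDAS-5 against vehicle 0.75 and 0.47. Between JQ1 and FIDAS-5 they were slightly smaller for both RNAs. MALAT1 averaged 7.79 with JQ1 and 6.21 with FIDAS-5 after removal, against 7.76 and 6.10 before. NEAT1 averaged 3.70 and 2.10 in the same groups after removal, against 3.67 and 2.06 before. After removal all 3 FIDAS-5 libraries were above all vehicle libraries for both RNAs. The trend was fitted to departures from each gene's mean over all 9 libraries, so removing it also shifts group means. For MALAT1 the vehicle mean went from 5.59 to 5.46 and the FIDAS-5 mean from 6.10 to 6.21. Across all 20 alternative settings, GC removal included, MALAT1 stayed between 2.01 and 2.33 and NEAT1 between 1.79 and 2.35 for JQ1 against vehicle. Several of these settings, such as the filters, cannot change a difference of group means.

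**Figure D2:**
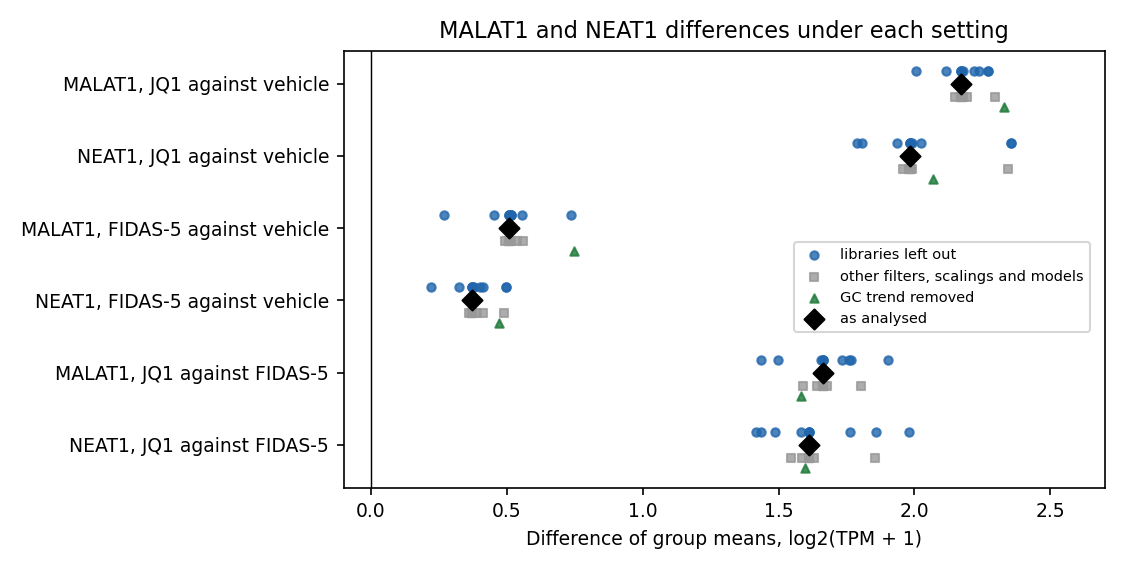
Differences of MALAT1 and NEAT1 between group means on the log2(TPM + 1) scale, with diamonds for the values as analysed, circles for fits without 1 or 2 libraries, squares for other filters, scalings and models, and triangles for values with the GC trend removed. Both compounds' differences stay above 0; those of JQ1 against vehicle lie between 1.79 and 2.35, and those of FIDAS-5 against vehicle between 0.22 and 0.75.

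The strand of the libraries is not given in the sources used here, so reads of MALAT1 cannot be told apart from those of TALAM1, the antisense RNA of the MALAT1 locus. TALAM1 was listed at 0.307, 0.290 and 0.336 TPM with JQ1, 0.0860, 0.114 and 0.167 TPM with FIDAS-5, and 0.160, 0.201 and 0.182 TPM with vehicle. The JQ1 libraries were the highest for TALAM1 as well, at under 1 TPM against at least 188.3 TPM for MALAT1. TALAM1 did not reach the filter for testing.

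Among the 4263 lncRNA symbols of the table, MALAT1 was number 2, 2 and 3 by level in the JQ1 libraries. It was number 7, 13 and 8 in the FIDAS-5 libraries and number 13, 15 and 14 in the vehicle libraries. NEAT1 was number 50, 47 and 92 with JQ1, 188, 205 and 269 with FIDAS-5, and 403, 307 and 344 with vehicle. Both RNAs therefore held higher places among lncRNAs in every JQ1 library than in any other. Among the 944 lncRNAs that were tested, MALAT1 had the fifth and NEAT1 the seventh highest difference for JQ1 against vehicle. For FIDAS-5 against vehicle they were numbers 73 and 116. For JQ1 against FIDAS-5 they were numbers 9 and 12. By limma with a Benjamini-Hochberg adjusted p under 0.05, 164 of the 944 rose and 133 fell with JQ1 against vehicle, and their median difference was 0.03. Over all 13573 tested genes 38.5% were called in either direction in that comparison.

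**Figure D3:**
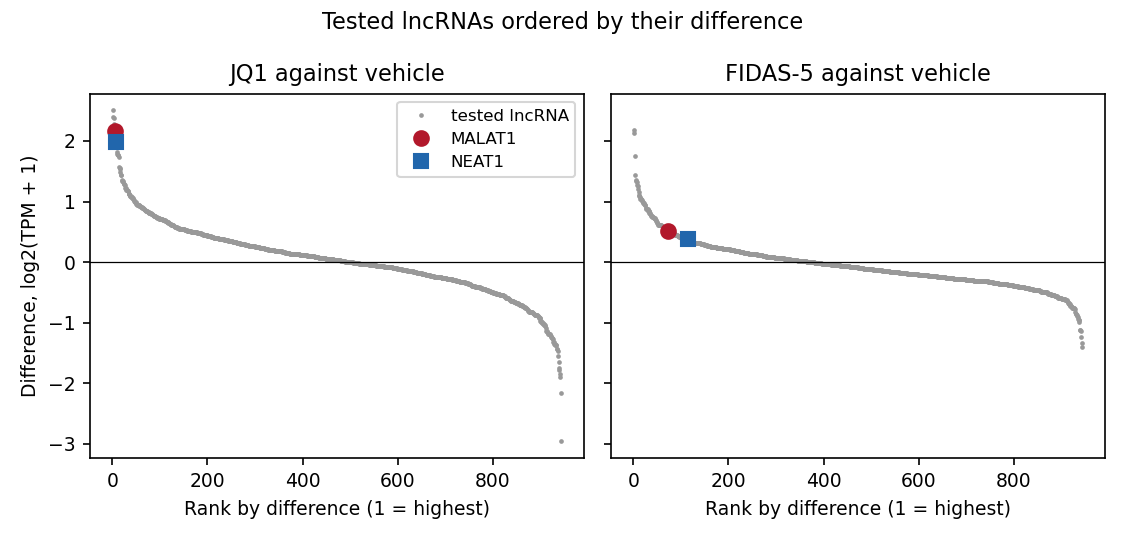
Tested lncRNAs (944) ordered by their difference on the log2(TPM + 1) scale, for JQ1 against vehicle (left) and FIDAS-5 against vehicle (right), with MALAT1 as a circle and NEAT1 as a square. For JQ1 both lie at the upper end, as numbers 5 and 7; for FIDAS-5 they are numbers 73 and 116.

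The 2 genes are neighbours, so the genes around them were set beside them. On GRCh38.p14, NEAT1 occupies chr11:65422798-65445540 and MALAT1 chr11:65497738-65506516, both on the plus strand, with 52.2 kb between them. Within 500 kb of the pair lay 64 other symbols, of which 41 were tested. With JQ1 against vehicle 11 of them rose and 9 fell (limma, adjusted p under 0.05), and the median difference was 0.19. Over all 13573 tested genes 38.5% were called, 2582 higher and 2637 lower. MALAT1 and NEAT1 had larger JQ1 differences than 40 of the 41. The exception was TM7SF2, a sterol reductase gene 306.6 kb from NEAT1, which rose by 2.69 ± 0.12 (SE, limma adjusted p = 5.26e-06). FRMD8, the nearest tested gene, 9.3 kb upstream of NEAT1, rose by 1.03 ± 0.21 (SE, limma adjusted p = 0.00534), and FAM89B, 66 kb downstream of MALAT1, by 1.55 ± 0.15 (adjusted p = 9.9e-05). SSSCA1, 64 kb downstream of MALAT1, fell by 0.69, and FOSL1, which encodes an AP-1 subunit and lies 385.5 kb downstream, fell by 1.36 (limma adjusted p = 0.00336 and 0.00366). LTBP3, downstream of MALAT1, had a JQ1 difference of 0.52 and was not called. The count of 11 was 5 without JQ1 replicate 1 or 2 and 7 without JQ1 replicate 3.

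With FIDAS-5 against vehicle 13 of the 41 neighbours rose and 5 fell, with a median difference of 0.21. Over all tested genes 20.2% were called, 1711 higher and 1031 lower as analysed, and 1904 higher and 1756 lower after quantile normalization. Of the 41 neighbours, 17 had a larger FIDAS-5 difference than MALAT1 and 19 a larger one than NEAT1. SYVN1, a ubiquitin ligase gene of the endoplasmic reticulum, rose by 1.37, and CDC42EP2 by 1.22 (limma adjusted p = 0.0118 and 0.00457). The count of 13 was 8 without vehicle replicate 3 or FIDAS-5 replicate 2, 7 without FIDAS-5 replicate 1 and 6 without FIDAS-5 replicate 3. The count of 5 was 2 without vehicle replicate 3 and 3 when vehicle replicate 1, replicate 2 or 3 of FIDAS-5, or replicate 1 or 2 of JQ1 was left out.

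**Figure D4:**
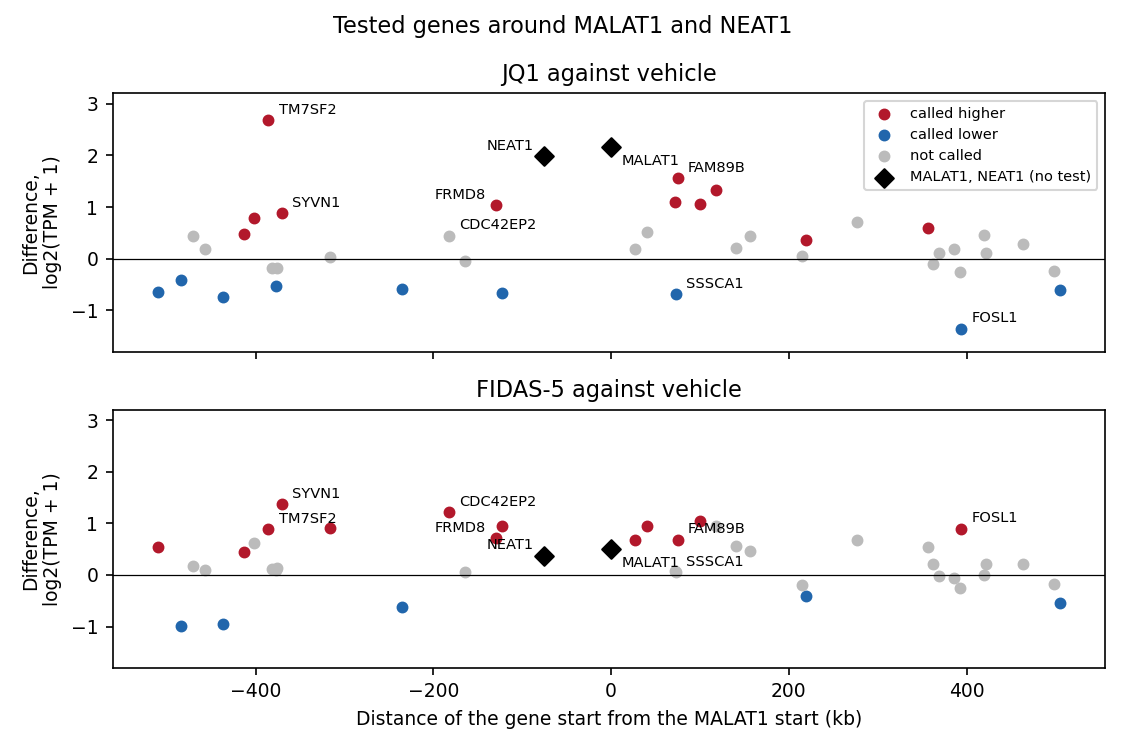
Differences of tested genes within 500 kb of MALAT1 and NEAT1 on the log2(TPM + 1) scale, by the distance of their start from the MALAT1 start in kb, for JQ1 against vehicle (above) and FIDAS-5 against vehicle (below); diamonds are MALAT1 and NEAT1. With JQ1 the 2 diamonds lie above every neighbour but TM7SF2, and with FIDAS-5 they lie among the neighbours.

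As analysed, the transcripts of paraspeckle proteins were mostly not called, and most of those called fell. The counts are to be read against the 38.5% of all tested genes called with JQ1 and the 20.2% called with FIDAS-5. Of 8 proteins known to be essential for paraspeckles, all tested, 0 rose and 2 fell with JQ1 against vehicle, and 0 rose and 2 fell with FIDAS-5 against vehicle, by limma. At an unadjusted p under 0.05, 0 rose and 3 fell with JQ1, and 0 rose and 5 fell with FIDAS-5. Their median differences were −0.60 and −0.55, against −0.01 and −0.02 over all tested genes. The RNA-binding protein DAZAP1 was called with both compounds, with differences of −0.77 with JQ1 (limma adjusted p = 0.00323) and −0.51 with FIDAS-5 (adjusted p = 0.0362). The FIDAS-5 call of DAZAP1 was lost when any 1 FIDAS-5 library or replicate 1 or 2 of vehicle or of JQ1 was left out, with an adjusted p of up to 0.10. SFPQ, which binds NEAT1 along its length, averaged 53.6 ± 17.3 TPM with JQ1, 53.2 ± 11.4 TPM with FIDAS-5 and 79.3 ± 2.74 TPM with vehicle (SD, n = 3 each) and was not called. NONO, the partner of SFPQ, averaged 109.0 ± 4.63, 84.2 ± 7.89 and 98.7 ± 15.2 TPM in the same groups and was not called either. Of 24 other paraspeckle proteins tested, 1 rose and 5 fell with JQ1, median −0.31, and 0 rose and 4 fell with FIDAS-5, median −0.44 (1 and 13 at an unadjusted p under 0.05). CIRBP, the cold-inducible RNA-binding protein, rose by 1.60 ± 0.15 with JQ1 (SE, limma adjusted p = 9.9e-05), still less than NEAT1's 1.98. RBMX, an RNA-binding protein of splicing, was at 67.6 ± 14.6 TPM with JQ1, 63.4 ± 8.92 TPM with FIDAS-5 and 134.4 ± 9.0 TPM with vehicle and fell with both compounds (adjusted p = 0.00288 and 0.00392). RBM3, another cold-inducible protein, fell by 0.98 with JQ1 (adjusted p = 0.00433). The calls of TARDBP, HNRNPA1 and RBM12 with JQ1, and of HNRNPA1, RBM3 and RBM12 with FIDAS-5, were each lost without vehicle replicate 2 or 3, among other settings, with an adjusted p of up to 0.136. These JQ1 counts of 2 and 5 became 5 and 11 after the GC trend was removed, and the FIDAS-5 counts of 2 and 4 became 5 and 13. Calls over all genes rose too, to 7039 with JQ1 and 4416 with FIDAS-5 of 13042 genes. As analysed they were 5219 and 2742 of 13573. Without JQ1 replicate 3, which only adds to the estimate of spread there, the FIDAS-5 counts were 5 and 8. Over all genes 3304 of 13367 were then called with FIDAS-5.

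Transcripts of nuclear speckle proteins, whose bodies hold MALAT1, went in both directions with JQ1. Of 34 tested, 3 rose and 5 fell with JQ1 against vehicle, median −0.11, and 0 rose and 5 fell with FIDAS-5, median −0.37 (limma; 1 and 10 at an unadjusted p under 0.05). Both counts are no larger a share than the 38.5% and 20.2% of all tested genes called. SRSF1, a splicing factor known to bind MALAT1, fell by 1.39 ± 0.29 with JQ1 (SE, limma adjusted p = 0.00575), and U2AF1, which recognizes the 3′ splice site, fell by 0.72 (adjusted p = 0.00442). SRSF4, another splicing factor, fell by 0.69 with FIDAS-5 (adjusted p = 0.00856). SRRM2, a scaffold protein of speckles, rose by 1.39 with JQ1, and that call was lost without JQ1 replicate 2 (adjusted p = 0.0547). The kinases CLK1 and CLK4 also rose, and their calls were lost without JQ1 replicate 1 or 2 or vehicle replicate 1 or 3 (adjusted p of up to 0.129 and 0.107). The other calls, of SRSF3, SRSF4 and U2AF2 with JQ1 and of SRSF1, SRSF2, SRSF3 and DDX39B with FIDAS-5, were each lost without at least 1 single library. Of the 13 calls, 3 held in every other setting in which the gene passed the filter, those of SRSF1 and U2AF1 with JQ1 and of SRSF4 with FIDAS-5.

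Factors of the tRNA-type processing of the MALAT1 and NEAT1 ends, listed together with METTL16, were called lower or not called with JQ1. Of 13 tested, 0 rose and 7 fell with JQ1, median −0.48, and 0 were called with FIDAS-5, median −0.14, where 38.5% and 20.2% of all tested genes were called, with medians of −0.01 and −0.02. At an unadjusted p under 0.05, 0 rose and 10 fell with JQ1, and 0 rose and 2 fell with FIDAS-5. The RNase P subunits POP7, POP1 and RPP25 fell by 0.90, 0.89 and 0.79 with JQ1 (limma adjusted p = 0.000732, 0.00619 and 0.00231). METTL16, a methyltransferase known to bind the MALAT1 triple helix, fell by 0.63 with JQ1 (limma adjusted p = 0.00933). Its call is counted in this list and again among the m6A genes below. These 4 calls held in every other setting in which the gene passed the filter. Those of RPP21 and RPP38 were lost without JQ1 replicate 3, among other settings, and that of ELAC2 without JQ1 replicate 2. With FIDAS-5 the processing list had no call as analysed and 1 without vehicle replicate 1 or JQ1 replicate 3. MALAT1 carries N6-methyladenosine (m6A), and of 14 m6A writers, erasers and readers tested 1 rose and 3 fell with JQ1, median 0.00, and 0 rose and 1 fell with FIDAS-5, median −0.19 (0 and 3 at an unadjusted p under 0.05), shares no higher than the 38.5% and 20.2% of all tested genes. METTL3, the catalytic subunit of the m6A writer, averaged 11.9 ± 1.78 TPM with JQ1 and 17.6 ± 3.63 TPM with vehicle (limma adjusted p = 0.0358), and that call was lost without vehicle replicate 2 or 3, JQ1 replicate 1 or 3, or FIDAS-5 replicate 2 or 3. RBM15B, which guides the m6A writer, rose by 0.95 with JQ1 (adjusted p = 0.000658). HNRNPC, which binds MALAT1 where m6A opens its structure, fell by 1.21 with JQ1 and by 1.05 with FIDAS-5 (adjusted p = 0.00313 and 0.0116), and the FIDAS-5 call was lost without FIDAS-5 replicate 3 (adjusted p = 0.0514).

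Nuclear RNA decay is another set of factors that act on nuclear RNAs. Of 21 tested, 1 rose and 8 fell with JQ1, median −0.40, and 0 rose and 5 fell with FIDAS-5, median −0.32 (limma; 1 and 8 at an unadjusted p under 0.05). Both shares are near the 38.5% and 20.2% of all tested genes called, so the counts are no result about decay factors as a set. The 8 that fell with JQ1 were 7 subunits of the RNA exosome and its helicase SKIV2L2 (MTR4), from EXOSC7 by 0.79 to EXOSC5 by 1.83, and EXOSC6 was the one that rose, by 0.90. These 9 calls held in every other setting. With FIDAS-5, EXOSC8 fell by 1.08 and its call held in every setting. The other 4 calls with FIDAS-5, of EXOSC2, EXOSC5, EXOSC9 and EXOSC10, were each lost without at least 1 of the FIDAS-5 libraries, with an adjusted p of up to 0.0657, 0.0755, 0.0514 and 0.14.

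Other well-known lncRNAs differed among themselves. Of 19 tested, 2 rose and 7 fell with JQ1, median −0.41, and 4 rose and 2 fell with FIDAS-5, median 0.03, beside 38.5% and 20.2% of all tested genes called. CYTOR and FIRRE fell by 1.85 and 1.04 with JQ1 and rose by 0.75 and 0.77 with FIDAS-5, and H19 fell by 1.36 with JQ1 and by 1.40 with FIDAS-5. All 6 of these calls held in every other setting in which the gene passed the filter, 16 of 20 for H19. The 2 that rose with JQ1, LINC00261 by 1.18 and MIR22HG by 0.82, lost their calls without JQ1 replicate 1 or 2. MIR22HG also lost its call without any 1 vehicle library, and GAS5 and HULC, which fell with JQ1, lost theirs without vehicle replicate 2 or 3.

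Of 17 transcription regulators, among them factors known to act on MALAT1 or NEAT1, 5 rose and 2 fell with JQ1, median 0.09, and 2 rose and 2 fell with FIDAS-5, median 0.04, again near the 38.5% and 20.2% of all tested genes called. STAT3, the cytokine-activated factor, rose by 1.13 with JQ1 and by 0.91 with FIDAS-5 (limma adjusted p = 0.000233 and 0.00147). EPAS1, the hypoxia factor HIF-2α, averaged 61.1 ± 10.0 TPM with JQ1, 89.8 ± 15.2 TPM with FIDAS-5 and 47.5 ± 7.19 TPM with vehicle, and rose by 0.90 with FIDAS-5 (adjusted p = 0.00931). BRD2, a target of JQ1, rose by 0.92 with JQ1 (adjusted p = 0.003). BRCA1, a DNA repair gene, fell by 0.90 with JQ1 and by 1.54 with FIDAS-5 (adjusted p = 0.00598 and 0.000846). The call of BRD3 with JQ1 was lost without JQ1 replicate 1 or 2 or vehicle replicate 2 or 3, and that of SP1 with FIDAS-5 without replicate 2 or 3 of FIDAS-5 or of vehicle.

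**Figure D5:**
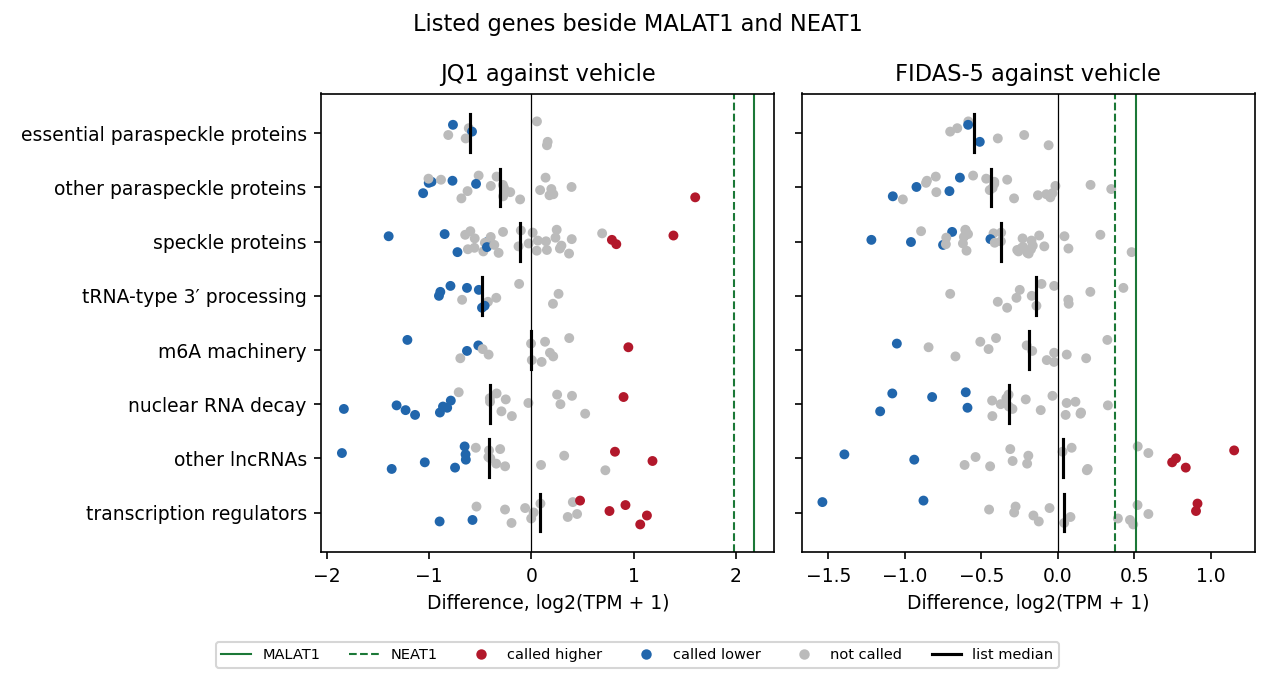
Differences of listed genes on the log2(TPM + 1) scale for JQ1 against vehicle (left) and FIDAS-5 against vehicle (right), red where called higher, blue where called lower and grey where not called, with a black bar at the list median and green lines at MALAT1 (solid) and NEAT1 (dashed). With JQ1 no listed gene reaches the 1.98 of NEAT1, and the largest is CIRBP at 1.60.

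The genes whose levels followed MALAT1 and NEAT1 most closely were found by Pearson correlation of log2(TPM + 1) over the 9 libraries. Only tested genes with a mean of at least 5 TPM were candidates, 7897 in all. The libraries fall into 3 groups, so such a correlation mostly reflects the order of the groups and is given as a description. For MALAT1 they were MGC12916 (r = 0.993), SMG6 (0.987), HKR1, HECTD4 and EXT1. For NEAT1 they were MANBA (r = 0.997), ABAT, ZSWIM6, SLC16A10 and APLP2. MANBA, a lysosomal mannosidase gene, was at 7.17 to 12.2 TPM with JQ1, 4.15 to 5.56 TPM with FIDAS-5 and 3.51 to 4.20 TPM with vehicle. SMG6, which encodes an endonuclease of nonsense-mediated decay, was at 9.26 to 10.1 TPM with JQ1, 2.62 to 4.63 TPM with FIDAS-5 and 2.26 to 3.18 TPM with vehicle. MALAT1 and NEAT1 correlated with each other at 0.947 over the 9 libraries, and NEAT1 was number 176 among the genes ordered by their correlation with MALAT1.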

How the data were processed

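RNA of 9 Huh7 libraries was measured by sequencing of total RNA extracted on silica columns, with libraries made by a commercial company, per the labels' protocols. The authors deposited TPM by gene symbol; the submitters' processing notes name Salmon and hg38. The Salmon version, the annotation, the strand and the selection of RNA are not given in the sources used here. TPM keep no depth, so no counting intervals are given. Symbols were matched to RefSeq on the same genome (25681 as current symbols, 1134 as synonyms, 985 not matched).

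Values were taken as log2(TPM + 1), and the 13573 genes at 1 TPM or more in 3 or more libraries were tested. In limma 3.58.1 (R 4.3.3), 1 model with a mean for each group took all 9 libraries, and variances were moderated by empirical Bayes with no trend (residual degrees of freedom 6, prior 2.86). Two-sided p-values were adjusted by Benjamini-Hochberg over all tested genes, with a threshold of 0.05. The code was tested on simulated data. Python 3.11.15 and matplotlib 3.10.9 drew the figures.

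MALAT1, NEAT1, the gene lists and the tests were chosen with earlier results of these data known, so the lists are described by counts and medians and MALAT1 and NEAT1 have no p-value. Genes named are members of the lists, tested neighbours within 500 kb, and the 5 genes with the highest correlation to MALAT1 or NEAT1. Those 5 were taken from genes with a mean of at least 5 TPM. Alternatives were a pseudocount of 0.1, no filter, a filter of 5 TPM, median-of-ratios and quantile scaling, TPM over protein-coding genes, a fit of only the 2 groups concerned, a replicate block, a moderation trend, leaving out each library, and, chosen after seeing the data, leaving out JQ1 and FIDAS-5 replicate 3 together and removing a lowess trend on GC content (13042 genes). Departures from the group means of same-numbered libraries correlated at 0.26, 0.10 and 0.42 across genes between JQ1 and FIDAS-5. Those of JQ1 and FIDAS-5 libraries with different numbers correlated at −0.35 to 0.18, which overlaps. The numbers may therefore pair these libraries, but the values do not settle it. No label states a pairing, so the main model has no replicate block. Sequences were read from GENCODE 29 transcripts and RefSeq promoter windows. Some genes of the lists are counted but not reported by name here.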

Additional observations from a re-analysis of the deposited data

How the results depend on the processing

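MALAT1 and NEAT1 kept the direction of their differences in all 20 settings. Several of these cannot change a difference of group means: the filters, the fit of only the groups concerned, the replicate block and the moderation trend. Leaving out a library of the group not compared cannot change it either. For FIDAS-5 against vehicle, MALAT1 lay between 0.27 and 0.75 and NEAT1 between 0.22 and 0.50; for JQ1 against FIDAS-5, MALAT1 lay between 1.43 and 1.90 and NEAT1 between 1.42 and 1.98. The MALAT1 difference less the NEAT1 difference was small for JQ1 against vehicle. It was 0.19 log2 units as analysed, lay between −0.15 and 0.43 otherwise, and changed sign. It carries the pseudocount, which shrinks NEAT1 more, so it is not the log2 of the TPM ratio. The mean TPM ratio was 19.6 with JQ1 and 21.4 with vehicle. Genes called for JQ1 against vehicle were 5219 as analysed and 3639 to 7039 otherwise. For FIDAS-5 against vehicle they were 2742 as analysed, 1461 to 3304 when single libraries were left out (1461 without FIDAS-5 replicate 3 and 1634 without vehicle replicate 3) and 4416 with the GC trend removed. For JQ1 against FIDAS-5 they were 4726 as analysed, 3247 to 5287 when single libraries were left out and 2991 with a filter of 5 TPM, under which 8619 genes were tested.

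With the replicate block, 5544 genes were called for JQ1 against vehicle, 2891 for FIDAS-5 against vehicle and 5052 for JQ1 against FIDAS-5. The block cannot change a difference of group means, so it is no test of the differences of MALAT1 and NEAT1. Correlations of same-numbered libraries with vehicle were −0.08, 0.03 and 0.00 for JQ1 and 0.04, 0.16 and 0.01 for FIDAS-5. The 0.16, of replicate 2, was above the 0.10 between replicate 2 of FIDAS-5 and of JQ1. Whether vehicle libraries pair with the others by number is therefore not known.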
